A study of Homo sapiens with 12 samples.

Results

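CENPT, C21orf91, OXR1, TRMT10A and RBM47 are 5 of the 26334 genes in an expression table of HK-2, a line of epithelial cells from the human proximal kidney tubule. They were chosen by name because doxycycline (Dox), which switched on a PRCC-TFE3 fusion gene, raised them about 2-fold or more even when the kinases CDK8 and CDK19 were inhibited. The choice rests on measured values of these same libraries, so the Dox changes below are descriptions without a test. All 5 were among the 12649 genes that passed the filter on low values. Poly(A) RNA was sequenced from 4 groups of 3 libraries, which the labels call independent biological replicates. Every group was grown for 48 h in medium with puromycin and blasticidin and carried the inducible fusion gene. The first group received Dox plus the CDK8/19 inhibitor MSC2530818 at 100 nM, the second Dox alone, the third the inhibitor alone at 100 nM, and the fourth the vehicle DMSO. Cells that lack the fusion were not treated with Dox in this design. An effect of Dox itself and an effect of the fusion therefore cannot be told apart, and the labels do not say whether the line is a single clone.

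PRCC-TFE3 is a fusion found in translocation renal cell carcinoma. Its TFE3 part belongs to the MiT/TFE transcription factors, which bind E-box DNA with the letters CACGTG and are known for control of lysosomal genes. CDK8 and CDK19 are the kinases of Mediator, the complex that links transcription factors to RNA polymerase II. The 5 genes have unrelated textbook roles. CENPT is a protein of the inner kinetochore that sits on centromeric chromatin and recruits the NDC80 complex, which holds spindle microtubules. C21orf91, also called EURL, has been studied mainly in mouse brain development. OXR1 carries a TLDc domain and protects cells from oxidative damage. TRMT10A is a methyltransferase that modifies guanosine in tRNA. RBM47 binds RNA and works with the deaminase APOBEC1 in C-to-U editing of mRNA, and it also takes part in splicing.

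The genes lie on different chromosomes except for TRMT10A and RBM47. In GENCODE v29 on GRCh38, CENPT occupies chr16:67828157-67847811 on the minus strand and C21orf91 chr21:17788967-17819386 on the minus strand. TRMT10A occupies chr4:99546709-99564032 and RBM47 chr4:40423267-40630875, both on the minus strand. RefSeq promoter windows on GRCh38.p14, which run 250 bases before to 50 bases after a start, were used for 4 of the genes: 1 for CENPT, 1 for C21orf91, 2 for TRMT10A and 4 for RBM47. The 250 upstream bases are shown for CENPT and C21orf91, which had the largest Dox changes with the inhibitor, and for a TRMT10A start, which has a match to the letters described next. They lie at chr16:67847694-67847943, chr21:17819357-17819606 and chr4:99564040-99564289, all on the minus strand, and are written 5′ to 3′ with the letters ACGTG, or CACGT where they match on the other strand, in capitals.
CENPT: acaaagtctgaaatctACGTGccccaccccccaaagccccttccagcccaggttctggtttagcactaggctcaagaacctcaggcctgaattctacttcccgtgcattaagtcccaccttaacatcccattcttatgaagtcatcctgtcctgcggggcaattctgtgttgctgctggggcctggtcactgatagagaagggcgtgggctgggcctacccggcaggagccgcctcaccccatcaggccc
C21orf91: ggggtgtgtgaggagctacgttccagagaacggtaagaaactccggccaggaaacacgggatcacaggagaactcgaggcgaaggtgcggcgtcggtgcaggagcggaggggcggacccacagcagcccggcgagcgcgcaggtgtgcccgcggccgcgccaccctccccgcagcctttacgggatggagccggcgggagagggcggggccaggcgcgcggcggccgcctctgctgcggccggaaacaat
TRMT10A: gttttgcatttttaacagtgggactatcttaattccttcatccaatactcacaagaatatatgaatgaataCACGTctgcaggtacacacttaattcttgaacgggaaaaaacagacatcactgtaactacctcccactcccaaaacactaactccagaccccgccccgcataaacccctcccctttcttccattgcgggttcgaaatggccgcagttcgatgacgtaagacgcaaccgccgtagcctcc

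None of the 8 windows held any of 5 motifs searched on both strands. Of 35116 promoter windows of the same length, 7.26% held the E-box CACGTG and 11.1% the related letters CATGTG. The forms with a leading T, contained in the first pair, were TCACGTG, in 3.71% of windows, and then TCATGTG, in 2.92% of them. The CLEAR element, a longer form around CACGTG, was in 0.353%. The shorter letters ACGTG, searched after the sequences had been seen, occurred in 2 of the 8 windows, against 21.4% of all promoter windows. In CENPT they began 234 bases before the start on the gene's own strand, and in the TRMT10A window shown above 179 bases before the start on the opposite strand. A missing match says only that these letters are not in these windows.

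Levels are given in FPKM, a fragment count per length of transcript and per size of library, and tests were made on log2(FPKM + 1) with limma. A gene is called at a Benjamini-Hochberg adjusted p under 0.05 over all 12649 tested genes. TFE3, whose level includes fusion transcripts, stood at 87.58, 83.2 and 81.71 FPKM with Dox plus inhibitor, 149.12, 153.93 and 145.99 with Dox, 29.7, 27.41 and 26.27 with inhibitor, and 38.87, 35.81 and 32.73 with vehicle. It was high in all 6 libraries given Dox, and its level with Dox plus inhibitor was below that with Dox alone. The 12 libraries had FPKM totals between 429208 and 473950, highest in replicate 1 of every group, and the depth is unknown. The line expressed KRT8, KRT18 and PAX8, but LRP2, CUBN, SLC34A1, ANPEP, HNF4A and CDH1, which mark proximal tubule or epithelium, were at or below 0.09 FPKM in every library. Summed over 23 such markers, of which 13 reached 1 FPKM in some library and SLC22A6 was at 0 in all, levels ran from 845 to 891 with Dox plus inhibitor, 713 to 739 with Dox, 1051 to 1178 with inhibitor and 838 to 948 with vehicle. Of 15 markers of other cell types, 2 (CD68 and ACTA2) reached 1 FPKM and 3 were at 0 everywhere, with sums of 37.4 to 42.4 with Dox plus inhibitor, 53.6 to 59.0 with Dox, 30.1 to 37.2 with inhibitor and 34.7 to 42.9 with vehicle. That sum is mostly CD68, a macrophage and lysosomal marker, which averaged 31.0 FPKM with Dox plus inhibitor, 56.0 with Dox, 27.9 with inhibitor and 38.6 with vehicle. ACTA2, smooth muscle actin, averaged 7.84 with Dox plus inhibitor, 0.277 with Dox, 5.19 with inhibitor and 0.457 with vehicle, and rose with the inhibitor both with Dox (log2 2.80, adjusted p = 1.95e-08) and without it (log2 2.08, adjusted p = 1.13e-07). CD68 fell with the inhibitor, with log2 differences of -0.83 with Dox (adjusted p = 5.04e-05) and -0.46 without it (adjusted p = 0.00263). The part of these markers in the results, those for the inhibitor included, was not tested.

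CENPT had the highest level of the 5 genes. It stood at 72.93, 71.33 and 69.93 FPKM with Dox plus inhibitor, 83.3, 88.38 and 84.73 with Dox, 23.24, 23.9 and 24.18 with inhibitor, and 23.64, 21.63 and 21.02 with vehicle. The 6 libraries given Dox lay far above the 6 without it, and with Dox the 3 inhibitor libraries lay below the 3 others. The mean level with Dox plus inhibitor was 3.0 times that with inhibitor alone, a log2 difference of 1.55 ± 0.05 (SE). Without the inhibitor the fold was 3.87, a log2 difference of 1.91 ± 0.05. Numbered pairs of libraries gave folds of 3.14, 2.98 and 2.89 with the inhibitor, so the change was close in size in each. In RNA from whole cultures, more cells with a transcript and more RNA per cell cannot be told apart.

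C21orf91 was low in cells without Dox and had the largest folds. Its levels were 3.97, 5.05 and 5.41 FPKM with Dox plus inhibitor, 7.48, 8.22 and 9.26 with Dox, 0.69, 1.07 and 1.27 with inhibitor, and 1.09, 1.33 and 1.97 with vehicle. Each library given Dox was above every library without it, and replicate 1 was the lowest in all 4 groups. The fold of means was 4.76 with the inhibitor (log2 1.53 ± 0.15) and 5.69 without it (log2 1.93 ± 0.15). At such levels the added 1 FPKM makes the log2 difference smaller than the fold of means.

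OXR1, on chromosome 8 from 106359476 to 106752694 on the plus strand (GENCODE v29, GRCh38), varied most between replicates. It stood at 8.55, 12.57 and 12.87 FPKM with Dox plus inhibitor, 17.39, 15.95 and 19.62 with Dox, 3.23, 5.78 and 6.39 with inhibitor, and 4.36, 7.25 and 9.41 with vehicle. Groups with and without Dox did not overlap within either inhibitor condition, but the lowest Dox plus inhibitor library was below the highest vehicle library. Mean levels were 2.21 times higher with Dox plus inhibitor than with inhibitor (log2 1.03 ± 0.26) and 2.52 times higher with Dox than with vehicle (log2 1.27 ± 0.26). Replicate 1 was the lowest in 3 of the 4 groups.

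TRMT10A had levels of 3.17, 3.56 and 3.75 FPKM with Dox plus inhibitor, 5.3, 5.12 and 6.03 with Dox, 0.8, 1.31 and 1.59 with inhibitor, and 1.64, 2.35 and 2.75 with vehicle. Again every library given Dox exceeded every library without it. The log2 Dox difference was nearly equal in both conditions, 1.02 ± 0.15 with the inhibitor and 1.01 ± 0.15 without it, while the folds of means were 2.83 and 2.44. Both the induced and the uninduced levels were lower in the presence of the inhibitor.

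RBM47 had another pattern. Its levels were 8.06, 7.26 and 8.11 FPKM with Dox plus inhibitor, 15.57, 15.03 and 15.85 with Dox, 3.12, 3.43 and 3.09 with inhibitor, and 11.28, 10.69 and 11.4 with vehicle. The 4 groups were separate, and cells with Dox plus inhibitor held less RBM47 RNA than vehicle cells, with a fold of means of 0.702. The Dox fold was 2.43 with the inhibitor (log2 1.06 ± 0.06) but 1.39 without it (log2 0.44 ± 0.06), so RBM47 reached 2-fold only in the presence of the inhibitor, where its level without Dox was also lower. For the other genes, the level with Dox plus inhibitor over that with vehicle was 3.23-fold for CENPT, 3.29-fold for C21orf91, 1.62-fold for OXR1 and 1.55-fold for TRMT10A.

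**Figure D1:**
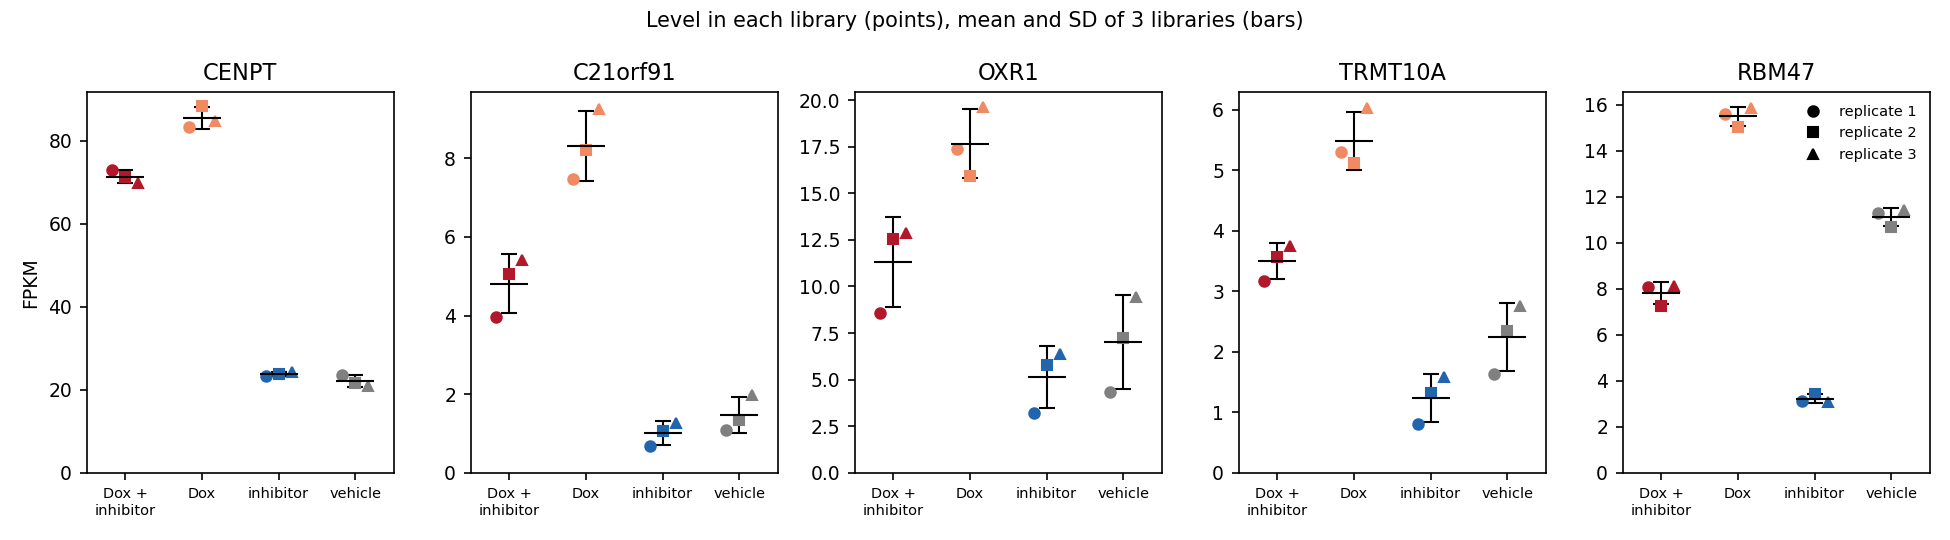
FPKM of the 5 genes (y axes, a separate scale for each gene) in every library of the 4 groups (x axes), with points for libraries, shapes for replicate numbers and bars for the mean and SD of 3 libraries. CENPT and C21orf91 separate by Dox, with means of 71.4 and 4.81 FPKM with Dox plus inhibitor, while RBM47 is lower with Dox plus inhibitor (7.81) than with vehicle (11.1).

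Over all tested genes, 18.2% were called with Dox plus inhibitor over inhibitor, 12.2% higher and 6.06% lower. With Dox over vehicle 17.9% were called, 10.6% higher and 7.31% lower. Non-overlapping, higher values in the Dox libraries, as all 5 genes had in both comparisons, were seen in 25.2% of tested genes with the inhibitor and in 22.8% without it. These shares are given only as background, since the genes were chosen on these comparisons. Replicate numbers were taken as pairing for the comparison of Dox plus inhibitor with inhibitor, by a limit on correlations given below. There, 4 of the 6 libraries correlated best with their own number. A fit with the number as a block called 4548 genes in that comparison, against 2304 without it. The shares and calls given here are from the fit without the block unless the block is named.

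A log2 difference of at least 1 in both Dox comparisons was reached by 7 tested genes, 0.0553% of them. In the comparison with the inhibitor, whatever the other showed, 22 genes (0.174%) reached it. The 7 genes were TFE3, CENPT, C21orf91, OXR1, TRMT10A, CEMIP, a gene of hyaluronan breakdown, and the small nucleolar RNA gene SNORD89, whose short transcript makes its level uncertain and whose adjusted p was 0.22 with the inhibitor and 0.25 without it. CEMIP was at 1.06 FPKM with Dox plus inhibitor, 3.99 with Dox, 0.02 with inhibitor and 0.02 with vehicle. TRMT10A at 1.02 and OXR1 at 1.03 lay just inside this limit with the inhibitor, and RENBP (0.98), PLIN2 (0.87) and SLC25A36 (0.86) just outside. Under median-ratio scaling TRMT10A (0.97) and OXR1 (0.95) fell below the limit, as they did without inhibitor replicate 1 (0.88 and 0.78). On plain FPKM means, 41 of 12621 genes with a defined fold rose at least 2-fold in both comparisons.

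How much of the Dox change each gene kept with the inhibitor follows in part from the choice of the genes and is given as a description. For the 88 genes with a log2 difference of at least 1 between Dox and vehicle, 0.696% of tested genes and 4 of the 5 members among them, the median was 0.41 with the inhibitor and 1.28 without it, and the median share of the log2 change kept was 26.4%. CENPT kept 81.2%, C21orf91 79.4%, OXR1 81.1% and TRMT10A 101% of theirs. Of the 88 genes, 8 kept 75% or more, and 4 of those were members. The others were SNORD89 (101%), PLIN2 (79.7%), IFI16 (77.9%) and TFE3 itself (76.9%). In FPKM units the share of the gain kept was lower, 75.1% for CENPT, 55.4% for C21orf91, 58.2% for OXR1 and 69.8% for TRMT10A. The Dox change with the inhibitor minus that without it was -0.36 ± 0.07 for CENPT, -0.40 ± 0.22 for C21orf91, -0.24 ± 0.36 for OXR1, 0.01 ± 0.21 for TRMT10A and 0.62 ± 0.09 for RBM47 on the log2 scale. These differences combine the comparisons used to choose the genes, so no test is given, and 2.82% of tested genes were called for such a difference, 0.909% higher and 1.91% lower.

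**Figure D2:**
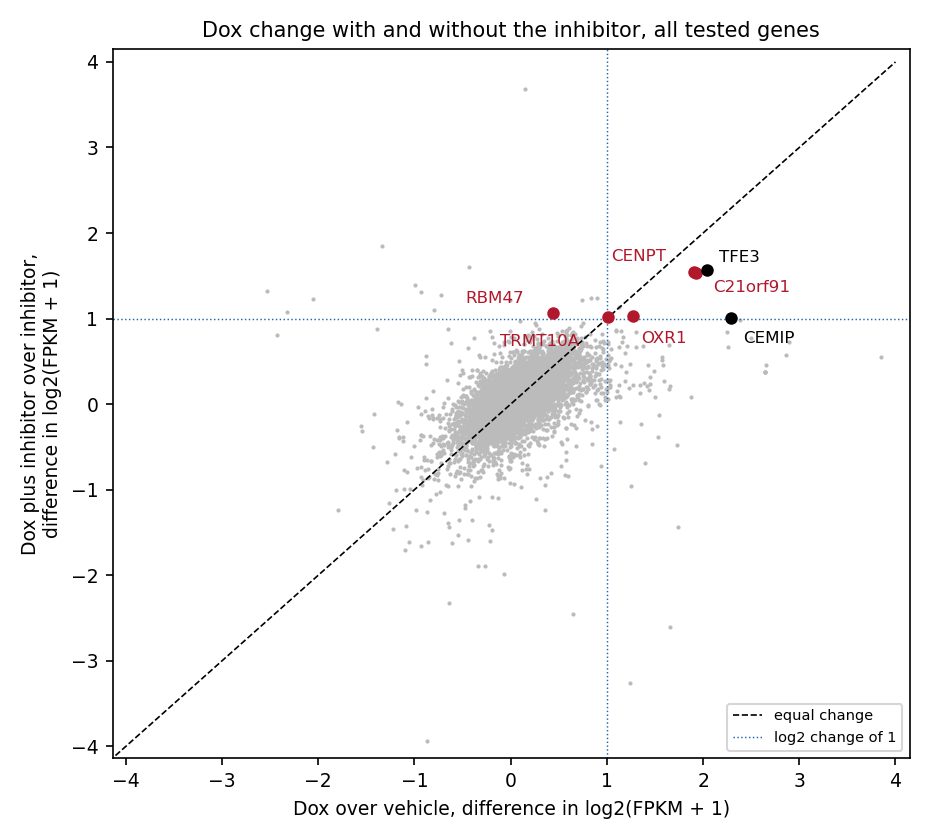
Log2 Dox difference with the inhibitor (y axis, Dox plus inhibitor over inhibitor) against that without it (x axis, Dox over vehicle) for all tested genes (grey), the 5 genes (red), TFE3 and CEMIP (black), on the log2(FPKM + 1) scale. CENPT and C21orf91 lie at 1.55 and 1.53 on the y axis close to TFE3 at 1.57, and RBM47, at 0.44 on the x axis and 1.06 on the y axis, is the red point farthest above the line of equal change.

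The comparisons of inhibitor with no inhibitor did not choose the genes, but they use the same libraries. A gene picked for a large Dox change with the inhibitor is more likely to have a low level with inhibitor alone and a high level with Dox plus inhibitor. A large Dox change without the inhibitor, as 4 of the 5 had, likewise goes with a high level with Dox alone and a low level with vehicle. In each inhibitor comparison these effects of the choice run in opposite directions, and the adjusted p-values do not correct for either. In cells given Dox, 4 of the 5 genes were called lower with the inhibitor, as were 20.8% of all tested genes. The estimate for OXR1 was also negative, but it was not called. CENPT was 71.4 ± 1.50 FPKM with Dox plus inhibitor and 85.5 ± 2.62 with Dox (SD, n = 3 each), a log2 difference of -0.26 ± 0.05 with an adjusted p of 0.0033. C21orf91 was 4.81 ± 0.749 with Dox plus inhibitor and 8.32 ± 0.894 with Dox, with a log2 difference of -0.69 ± 0.15 and an adjusted p of 0.0056. RBM47 fell to 7.81 ± 0.477 with Dox plus inhibitor, against 15.5 ± 0.417 with Dox, a log2 difference of -0.90 ± 0.06 with an adjusted p of 1.2e-06. The RBM47 fold of means, 0.504, was the lowest of the 5.

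TRMT10A was 3.49 ± 0.296 FPKM with Dox plus inhibitor and 5.48 ± 0.482 with Dox, a log2 difference of -0.53 ± 0.15 with an adjusted p of 0.018, and this call was lost in 3 of 22 alternative settings. OXR1 was 11.3 ± 2.41 with Dox plus inhibitor and 17.7 ± 1.85 with Dox, and its log2 difference of -0.61 (95% interval -1.18 to -0.05) had an adjusted p of 0.092. OXR1 was called in 6 of 23 alternatives. All 5 genes were lower in all 3 Dox plus inhibitor libraries than in any Dox library, as were 34.5% of tested genes, and 32.1% of tested genes were called, 20.8% lower and 11.3% higher.

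In cells without Dox the genes differed. RBM47 fell to 3.21 ± 0.188 FPKM with inhibitor, against 11.1 ± 0.380 with vehicle, a fold of 0.289 and a log2 difference of -1.53 ± 0.06 with an adjusted p of 2.7e-08. TRMT10A was 1.23 ± 0.401 with inhibitor and 2.25 ± 0.562 with vehicle, and its log2 difference of -0.54 ± 0.15 had an adjusted p of 0.014, a call lost in 2 of 22 alternatives. Both genes were lower in every inhibitor library than in any vehicle library, as were 29.9% of tested genes, and 38% were called, 26.3% lower and 11.7% higher. The other members' groups overlapped.

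CENPT averaged 23.8 ± 0.483 FPKM with inhibitor and 22.1 ± 1.37 with vehicle, and its log2 difference of 0.10 (95% interval -0.01 to 0.22) had an adjusted p of 0.15. The median of all tested genes was -0.12 in this comparison as deposited and -0.01 under median-ratio scaling, and under that scaling CENPT was at 0.22 and called higher (adjusted p = 0.008). C21orf91 averaged 1.01 ± 0.295 with inhibitor and 1.46 ± 0.455 with vehicle, with a log2 interval of -0.62 to 0.05 and an adjusted p of 0.16. OXR1 averaged 5.13 ± 1.68 with inhibitor and 7.01 ± 2.53 with vehicle, with an interval of -0.94 to 0.19 and an adjusted p of 0.28. These intervals leave room for a fall of either gene by amounts similar to that of TRMT10A.

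**Figure D3:**
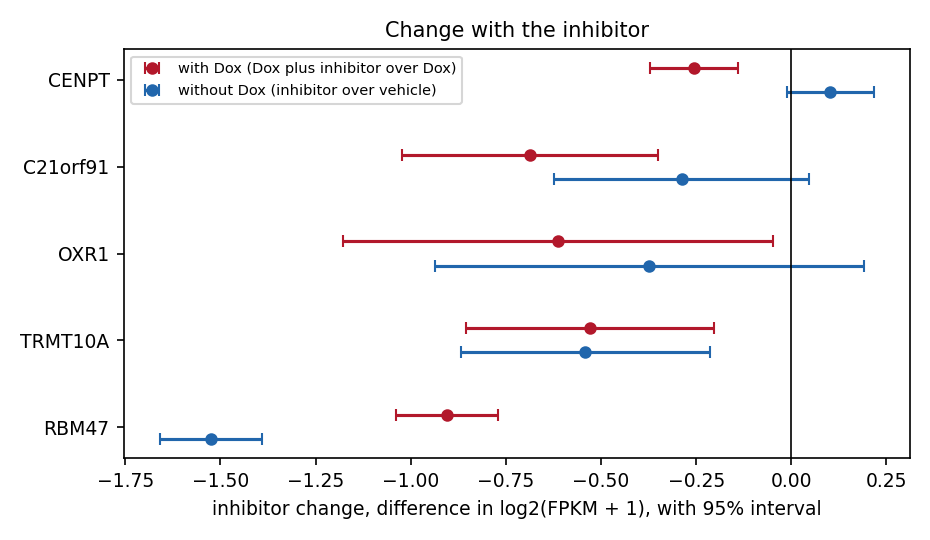
Change with the inhibitor on the log2(FPKM + 1) scale (x axis) for each gene (y axis), with the 95% interval, in cells with Dox (red) and without it (blue). RBM47 has the most negative values, -0.90 with Dox and -1.53 without it, and CENPT lies below 0 only with Dox.

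The split of calls between higher and lower moved with the scaling. Of the genes called with Dox plus inhibitor over inhibitor, 66.7% were higher as deposited, 35.3% under median-ratio scaling and 41.0% under quantile normalization, and with Dox over vehicle these shares were 59.2%, 43.4% and 43.3%. For inhibitor over vehicle they were 30.8%, 55.0% and 49.7%, and for Dox plus inhibitor over Dox 35.3%, 53.9% and 50.3%.

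The count of other kinetochore genes called in the Dox comparisons depended on the fit. Of 30 tested besides CENPT, 2 rose and 1 fell with Dox plus inhibitor over inhibitor, where 12.2% of all tested genes rose and 6.06% fell. With the replicate block 10 of the 30 rose, as did 3351 of the 12649 tested genes. With Dox over vehicle limma called 1 higher and 0 lower, and 1 was higher and 4 lower at an unadjusted p under 0.05. The number lower ran from 0 to 8 over the alternatives, 8 with a replicate block and a trend on length and GC taken out, and 10.6% of all tested genes were called higher and 7.31% lower. The median log2 differences were 0.18 with the inhibitor, where all tested genes had 0.08, and 0.00 without it, where all tested genes had 0.04. NDC80, the microtubule-binding subunit that gives its complex its name, rose by 0.60 with Dox plus inhibitor over inhibitor (adjusted p = 0.049), a call lost in 14 of 23 alternatives. DSN1, of the MIS12 complex, rose by 0.22 there (adjusted p = 0.035), a call lost in 11 of 23. CENPP, of the same inner kinetochore network as CENPT, was at 2.13 FPKM with Dox and 1.32 with vehicle, a rise of 0.43 (adjusted p = 0.018) that lost its call in 4 of 22 alternatives.

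In the inhibitor comparisons more of the kinetochore list was called lower than higher. Without Dox, 23 of 30 genes fell and 1 rose, where 26.3% of all tested genes fell, and the median log2 difference was -0.51 for the list and -0.12 for all tested genes. With Dox, 16 fell and 1 rose, where 20.8% of all tested genes fell, and the median was -0.42 for the list and -0.08 for all tested genes. The number that fell ran over the alternatives from 17 to 28 without Dox and from 13 to 19 with Dox, the lowest being under median-ratio scaling in both. SPC24, a subunit of the NDC80 complex, was at 5.12, 6.17 and 5.13 FPKM with inhibitor and 16.69, 14.07 and 12.33 with vehicle, a log2 difference of -1.24 ± 0.13 (adjusted p = 2.7e-05). It was at 7.68, 5.48 and 7.05 with Dox plus inhibitor and 13.35, 13.13 and 11.31 with Dox, so the groups did not overlap in either condition. CENPW, which partners CENPT in the histone-fold complex of the inner kinetochore, fell by 0.82 without Dox (adjusted p = 3.5e-05), with means of 19.9 FPKM with inhibitor and 35.9 with vehicle. CENPH fell by 0.57 with Dox (adjusted p = 8.7e-05). NUF2 fell by 1.04 without Dox (adjusted p = 0.022), a call lost in 4 of 23 alternatives. The gene listed as STRA13 rose in both inhibitor comparisons, by 0.60 without Dox and by 0.28 with it, but this symbol has been used for both CENPX and BHLHE40 and its identity is uncertain.

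**Figure D4:**
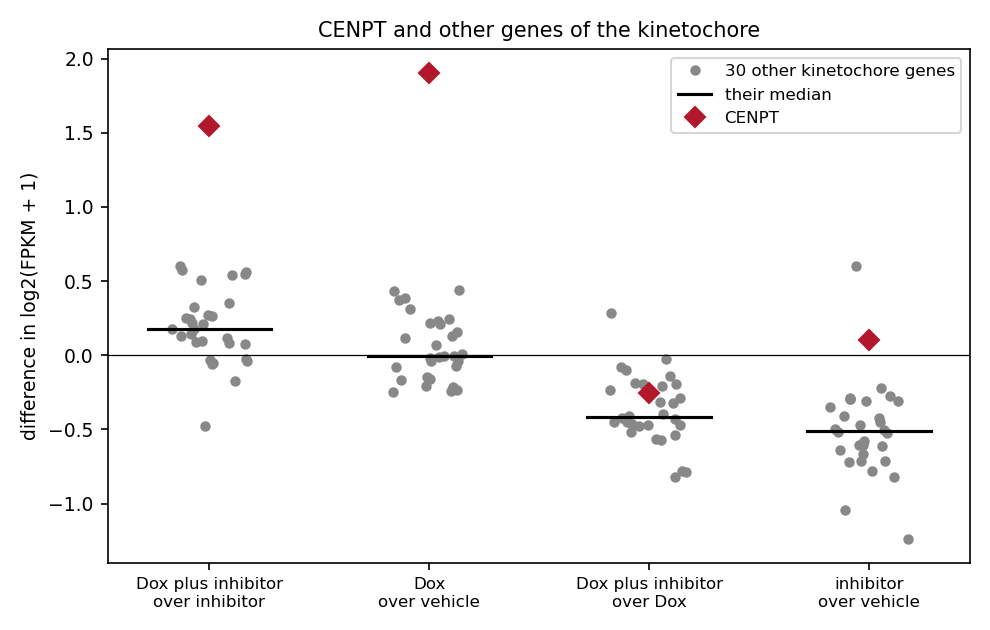
Log2 differences on the log2(FPKM + 1) scale (y axis) of CENPT (red) and 30 other kinetochore genes (grey, with their median as a line) in 4 comparisons (x axis). CENPT stands at 1.55 and 1.91 in the Dox comparisons, where the list medians are 0.18 and 0.00, and at 0.10 for inhibitor over vehicle, where the list median is -0.51.

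Among 32 other tested genes of tRNA modification, 4 rose and 2 fell with Dox plus inhibitor over inhibitor (12.2% and 6.06% of all tested genes), while with Dox over vehicle limma called 0 higher (2 at an unadjusted p under 0.05) and 4 lower (10.6% and 7.31% of all tested genes). WDR4, a subunit of a tRNA guanosine methyltransferase, fell by 0.45 with the inhibitor (adjusted p = 0.0059) and by 0.39 without it (adjusted p = 0.0094), the opposite direction to TRMT10A. NSUN3, a cytosine methyltransferase of mitochondrial tRNA, rose by 0.56 with Dox plus inhibitor over inhibitor (adjusted p = 0.014), a call lost in 3 of 23 alternatives. For the inhibitor, 1 rose and 6 fell without Dox, where 11.7% of all tested genes rose and 26.3% fell, but under median-ratio scaling 3 rose and 1 fell. With Dox 3 rose and 3 fell, where 11.3% of all tested genes rose and 20.8% fell. DUS2, a dihydrouridine synthase, rose by 0.42 with inhibitor over vehicle (adjusted p = 0.0011) and by 0.51 with Dox plus inhibitor over Dox (adjusted p = 0.00038), whereas NSUN3 fell by 0.72 with inhibitor over vehicle (adjusted p = 0.0013). The median log2 Dox difference of the list was -0.03 with the inhibitor and 0.04 without it, where all tested genes had 0.08 and 0.04.

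For OXR1, 27 other genes with a TLDc domain or a role in defence against reactive oxygen were tested. With Dox plus inhibitor over inhibitor 5 rose and 3 fell (12.2% and 6.06% of all tested genes), and with Dox over vehicle 4 rose and 3 fell (10.6% and 7.31% of all tested genes). CAT, the catalase gene, rose in both, by 0.39 (adjusted p = 0.0016) and 0.30 (adjusted p = 0.0049), the second call being lost in 1 of 23 alternatives. TLDC1, which shares the TLDc domain with OXR1, fell in both, by 0.33 (adjusted p = 0.013) and 0.34 (adjusted p = 0.0086), the first being lost in 1 of 23. SOD2, the mitochondrial superoxide dismutase, had means of 90.9 FPKM with Dox plus inhibitor, 135 with Dox, 103 with inhibitor and 78.1 with vehicle, and rose by 0.77 with Dox over vehicle (adjusted p = 2.9e-05). HMOX1, heme oxygenase, fell by 0.65 with Dox plus inhibitor over inhibitor (adjusted p = 9.4e-05) and rose by 0.57 with Dox over vehicle (adjusted p = 0.00011). With the inhibitor, 2 rose and 6 fell without Dox (11.7% and 26.3% of all tested genes). Under median-ratio scaling the number that fell there was 2, and the number that rose ran from 2 to 6 over the alternatives. With Dox limma called 0 higher (2 at an unadjusted p under 0.05) and 5 lower, where 11.3% of all tested genes rose and 20.8% fell. The number higher with Dox ran from 0 to 7 over the alternatives, 7 with the replicate block and the length and GC trend taken out.

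For RBM47, 16 other tested genes of RNA editing and epithelial splicing gave 1 rise and 1 fall with Dox plus inhibitor over inhibitor (6 rises with the replicate block), where 12.2% of all tested genes rose and 6.06% fell. With Dox over vehicle limma called 0 higher (1 at an unadjusted p under 0.05) and 2 lower, where 10.6% of all tested genes rose and 7.31% fell. APOBEC3B, a cytidine deaminase, fell by 0.37 with the inhibitor (adjusted p = 0.019) and by 0.33 without it (adjusted p = 0.026), each call being lost in 5 of 23 alternatives. In the inhibitor comparisons limma called 0 higher (0 also at an unadjusted p under 0.05) and 7 lower without Dox, where 26.3% of all tested genes were lower, and the number lower ran from 3 under median-ratio scaling to 8. With Dox it called 1 higher and 3 lower, where 20.8% of all tested genes were lower. SRSF1, a splicing factor, fell by 0.45 with inhibitor over vehicle (adjusted p = 4.8e-05), and HNRNPR, an RNA-binding protein, by 0.55 (adjusted p = 0.001), both smaller than the RBM47 difference of -1.53. Of 11 other tested genes on chromosome 21 near C21orf91, limma called 0 higher (4 at an unadjusted p under 0.05, and 4 with the replicate block) and 1 lower with Dox plus inhibitor over inhibitor. Of all tested genes, 12.2% rose and 6.06% fell there. With Dox over vehicle 3 of the 11 were called higher, where 10.6% of all tested genes were. These 3 were RBM11 (0.52), BTG3 (0.35) and APP (0.16), with adjusted p-values of 0.034, 0.027 and 0.019. Their calls were lost in 8 of 22, 7 of 23 and 5 of 23 alternatives.

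In the table, 35 genes overlap or neighbour the 5, and 15 were tested. With Dox plus inhibitor over inhibitor 2 of the 15 were called higher, NUTF2 by 0.24 and NSUN7 by 0.32, where 12.2% of all tested genes were. With Dox over vehicle 2 of the 15 were called higher, LAMTOR3 by 0.71 and BTG3 by 0.35, where 10.6% of all tested genes were. For inhibitor over vehicle limma called 2 higher, LRP12 by 0.48 and APBB2 by 0.26, and 0 lower (2 at an unadjusted p under 0.05), where 11.7% of all tested genes rose and 26.3% fell. For Dox plus inhibitor over Dox 2 were called higher (LRP12 and APBB2) and 2 lower (LAMTOR3 and THAP11), where 11.3% of all tested genes rose and 20.8% fell. The counts in the Dox comparisons are near the shares of all tested genes and are no result about these neighbourhoods. LAMTOR3 lies 314304 bases from TRMT10A and BTG3 176020 bases from C21orf91. CENPT shares exon bases with TSNAXIP1, THAP11 and NUTF2, all on the opposite strand, and whether the counting used strand is not given in the sources used here. NUTF2 had means of 200.1 FPKM with Dox plus inhibitor, 180.7 with Dox, 169.7 with inhibitor and 182.2 with vehicle, and it was not called with Dox over vehicle. THAP11 had means of 11.9 FPKM with Dox plus inhibitor, 14.2 with Dox, 13.5 with inhibitor and 15.9 with vehicle, and was called in neither Dox comparison. C21orf91 shares exon bases with C21orf91-OT1 and TRMT10A with MTTP, and both of these partners had group means below 0.2 FPKM. The antisense genes that share exon bases with C21orf91 and RBM47 in the annotation were not analysed here.

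The 5 genes differed in base composition. Transcript GC was 36.7% for TRMT10A, 38.5% for OXR1 and 40.4% for C21orf91, at the 1.80, 5.21 and 11.1 percentiles of tested genes with a value, and 58.7% for CENPT and 59.4% for RBM47. Replicate 1 was the lowest library in 4 groups for C21orf91, in 3 for OXR1 and for TRMT10A, in 2 for CENPT and in 0 for RBM47, and it was the lowest in all 4 groups for 8.59% of tested genes and the highest in all 4 for 8.83%. With a trend on length and GC removed, the log2 Dox difference with the inhibitor was 0.69 for TRMT10A, 0.72 for OXR1 and 1.27 for C21orf91, each below the value as deposited. The part of base composition in these values was not tested further.

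Genes with the most similar profiles were found by the root mean square distance in log2(FPKM + 1), each gene set against its own vehicle mean, over all 12 libraries. This is a description of 12 libraries that share 4 treatments. TFE3 was nearest to CENPT (0.33) and to C21orf91 (0.24), and CEMIP was second for both (0.38 and 0.32). The nearness of CEMIP depends on the added 1 FPKM, since CEMIP averaged 0.02 FPKM without Dox. Its Dox folds of means were 52.8 with the inhibitor and 199 without it, against 3.0 and 3.87 for CENPT. For OXR1 the nearest were ATP6V1C1 (0.21) and SNX16 (0.21), and for TRMT10A IFI16 (0.11) and FNIP1 (0.15). RBM47 was nearest to CNKSR3 (0.15), which was at 9.65 FPKM with Dox plus inhibitor, 17.1 with Dox, 4.92 with inhibitor and 14.6 with vehicle, the same order as RBM47. Among the 5 genes, CENPT and C21orf91 were 0.34 apart and OXR1 and TRMT10A 0.23, while RBM47 was 0.76 to 1.52 from the others.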

How the data were processed

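RNA of 12 HK-2 libraries was analysed. TRIzol extraction, a Bioanalyzer check and stranded TruSeq mRNA libraries are given per the labels' protocols. Per the submitters' processing notes, Salmon 1.9.0 and Trim Galore 0.6.7 were used, and the builds listed are GRCh38.p13 and hg38, without their roles. The deposited table holds FPKM per gene symbol, rounded by the authors to 2 decimals; the FPKM calculation, annotation and strand setting are each not given in the sources used here. The depth is unknown, so no counting intervals were computed.

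The values were left unscaled and taken to log2(FPKM + 1). The 12649 genes (48.0%) with an FPKM of 1 or more in at least 3 libraries were fitted with limma 3.58.1 in R 4.3.3 (4 group means, 8 residual degrees of freedom, empirical Bayes with an intensity trend), and p-values are two-sided and Benjamini-Hochberg adjusted over all of them. The log2 scale with 1 FPKM added understates changes of low genes. The fit was tested on simulated data. Values after ± are SD for FPKM and SE for log2 differences.

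The 5 members and the lists of related genes were chosen with earlier results of these data known. Besides the members, the text names per list and comparison up to 3 called genes with the largest rise and 3 with the largest fall, the nearest profiles, the genes at the 2-fold limit and the genes around each member. Of these, a subset chosen after their values were seen is described. Replicate numbers were taken as pairing where deviations from group means correlated by over 0.1 in all 3 same-numbered pairs. Among the comparisons made, only Dox plus inhibitor with inhibitor met this (r across genes 0.133 to 0.549); inhibitor with vehicle narrowly missed it (0.0974 to 0.686). Alternatives were other pseudocounts, filters and scalings, no intensity trend, a replicate block, a fit of the groups of a comparison alone, leaving out each library, and, added after seeing the data, removal of a trend on transcript length and GC (splines with 4 degrees of freedom, GENCODE v29). Promoter sequences are from RefSeq, GRCh38.p14.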

Additional observations from a re-analysis of the deposited data

Results flagged for a closer look

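For 8 of the genes named by the rule, the Dox change with the inhibitor differed from that without it by the interaction term of the limma fit, which called 2.82% of tested genes. The naming used values of these same libraries, so the count of 8 is no independent result. TFE3 rose less with Dox in the presence of the inhibitor (log2 1.57) than in its absence (2.04), a difference of -0.471 with an adjusted p of 0.023. CEMIP, near CENPT and C21orf91 in profile, had Dox changes of 1.01 with and 2.29 without the inhibitor, a difference of -1.279 (adjusted p = 3e-04). ASAH1, acid ceramidase, had 0.52 with and 1.57 without it (-1.054, adjusted p = 0.0091), and PLA1A, a phospholipase, 0.69 with and 1.64 without it (-0.9521, adjusted p = 0.022). CEMIP, ASAH1 and PLA1A were named for likeness to CENPT or C21orf91 in these same libraries. Their adjusted p-values therefore rest on values that helped to pick them and are no independent support.

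Of the genes near RBM47 in profile, 2 had a larger Dox change with the inhibitor. CNKSR3 had 0.85 with and 0.22 without it (0.6258, adjusted p = 0.0016), and DAB2, an endocytic adaptor, 0.82 with and 0.33 without it (0.4967, adjusted p = 0.022). Both were selected for likeness to RBM47 in these libraries, so their adjusted p-values are no independent support either. In the list of genes for defence against reactive oxygen, HMOX1 had -0.65 with and 0.57 without the inhibitor (-1.227, adjusted p = 5e-05), and SOD2 -0.18 with and 0.77 without it (-0.9542, adjusted p = 0.00054). HMOX1 and SOD2 were named because they were called in the comparisons, the interaction included. Their adjusted p-values thus repeat the ground for naming them.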

How the results depend on the processing

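The direction of every Dox and inhibitor change of the 5 genes was the same in all 23 alternatives (22 for C21orf91 and TRMT10A, which a mean FPKM of at least 5 leaves out). Calls numbered 2269 for Dox over vehicle, 3741 with the replicate block and 4148 with the block and the length and GC trend removed; 2304 for Dox plus inhibitor over inhibitor, 4548 with the block and 1099 in a fit of those groups alone; and 357 for the interaction, 666 with the block, 854 with the trend removed and 1122 with both. Leaving out 1 library gave 1427 to 2665 calls for Dox over vehicle (1427 without Dox replicate 3, 1492 without vehicle replicate 2), 1121 to 2920 for Dox plus inhibitor over inhibitor (1121 without Dox plus inhibitor replicate 3, 1245 without its replicate 2, 1352 without inhibitor replicate 2) and 186 to 420 for the interaction.

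Log2 Dox changes with the inhibitor moved by more than the replicate SD at pseudocounts of 0.1 and 0.5 for C21orf91 (2.17 and 1.823), TRMT10A (1.475 and 1.229) and RBM47 (1.255 and 1.162), with the trend removed for C21orf91 (1.268) and TRMT10A (0.6937), and under median-ratio and quantile scaling for CENPT (1.462 and 1.481) and RBM47 (0.996 and 0.9592). Without the inhibitor this held for C21orf91 at 0.1 and 0.5 (2.463 and 2.187), TRMT10A at 0.1 (1.277) and with the trend removed (0.6982), CENPT under median-ratio scaling (1.852) and RBM47 under quantile normalization (0.3694).

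With Dox, the inhibitor change of OXR1 was called with the block (-0.6128, adjusted p = 0.0068), in a fit of those groups alone (-0.6128, 0.014) and with the trend removed (-0.4653, 0.011, or 0.0014 with the block), and it ran from -0.7078 to -0.4386 with 1 library left out (adjusted p 0.044 to 0.27). TRMT10A was not called at a pseudocount of 0.1 (-0.6356, 0.052) and ran from -0.5696 to -0.4688 (called in neither the fit without Dox replicate 3, 0.07, nor that without Dox plus inhibitor replicate 1, 0.061). Without Dox, CENPT was called under median-ratio scaling (0.2193, 0.008), quantile normalization (0.1957, 0.014) and with the trend removed (0.1285, 0.044, or 0.02 with the block), and ran from 0.06899 to 0.1501 (called without vehicle replicate 1, 0.033). C21orf91 was called with the block (-0.2883, 0.0095), in a comparison whose same-numbered libraries narrowly missed the limit for pairing, and TRMT10A lost its call in a fit of those groups alone (-0.5409, 0.068) and without vehicle replicate 3 (0.057; range -0.6826 to -0.3934). The cause of these shifts was not tested. The block changed these 2 of the 10 inhibitor calls of the 5 genes, those of OXR1 with Dox and C21orf91 without it; same-numbered libraries of the other comparisons correlated from -0.09 to 0.69. In no comparison did all 6 libraries correlate best with their own number.

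Without read counts, precision at low FPKM is known only from the spread of 3 libraries, which limits C21orf91 and TRMT10A most.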
